A study of Mus musculus with 6 samples.

Results

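The genes described here encode the machinery of mitosis: the cyclins and kinases that start it, the checkpoint and kinetochore proteins that attach chromosomes to the spindle, the motors that build the spindle, and the condensins that compact the chromosomes. The list was fixed by name and holds 42 genes. Of these, 41 had at least 1 probe set whose array annotation gave the gene as its symbol, and 94 probe sets in all carried such a symbol, of 45101 on the array. Ccnb1, which encodes cyclin B1, was matched to no probe set and was not analysed here. Each gene was represented by its brightest probe set, and all 41 were above the filter on dim genes (a signal of 13.5), so 41 of the 12285 genes tested are members of the list.

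The cells came from the E14 mouse embryonic stem cell line, of 129P2/OlaHsd background, carrying a Venus reporter of Msgn1, a gene of the presomitic mesoderm. They were differentiated on gelatin in medium with serum (15%) with 0.5% DMSO, R-spondin3 (10 ng/mL), which potentiates Wnt signalling, and Noggin (200 ng/mL), which blocks BMP ligands, and all 6 samples shared this medium. Venus-positive cells were sorted at day 3 (3 arrays) or day 4 (3 arrays), and the arrays ask what differs between the days within 1 reporter gate in 1 line. The labels call the samples biological replicates without saying whether they were separate cultures. Each p-value sets the day difference against a variance from these samples, moderated over all genes tested. Whether that variance covers separate cultures is not known.

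Most mitotic transcripts are made in waves: they accumulate in G2 and mitosis and are low in G1, under the DREAM and MuvB complexes, which bind the CHR promoter element, and NF-Y, which binds CCAAT boxes. Some of the proteins are then destroyed by the anaphase-promoting complex (APC/C) and are made afresh for the next division. Embryonic stem cells and early mesoderm divide fast, and in a bulk sample the summed level of these transcripts follows how many cells are in G2 and mitosis as well as how much RNA each cell holds. A change in the share of dividing cells and a change in RNA per cell therefore cannot be told apart here.

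The mitotic genes were expressed at both days and differed little between them. Of the 41 genes, 6 rose and 1 fell at day 4 (limma, adjusted p under 0.05), or 17.1%, against 22.2% of all genes tested (11.5% higher and 10.7% lower). The genes that rose were Hmmr, Ncapd2, Mki67, Nusap1, Bub1 and Bub1b, and the gene that fell was Cdc20. Their changes ran from 0.23 to 0.54 upward and to -0.21 downward on the log2 scale, or 1.17-fold to 1.46-fold and 0.865-fold. In its brightest probe set, no gene of the list reached a 2-fold change, which 5.33% of all genes did (4.04% with a call). Dimmer tested probe sets of Aurka (1.34), Smc2 (1.04) and Kif23 (-1.14, not called) went beyond 2-fold. The median change of the list was 0.07 and its median absolute change 0.14, against -0.01 and 0.26 over all genes. Signals of the 2 days did not overlap for 17 genes, with day 4 above day 3 in 13 and below it in 4. Over all genes the days did not overlap in 41.4%, 20.7% above and 20.6% below.

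The fitted change was above 0 for 31 of the 41 genes (48.7% of all genes). It was above 0 for 25 when each array was centred on its median (45.4% of all genes). The 95% interval of the change lay within a 2-fold range either way for 40 of the 41 genes (75.5% of all genes). It lay within a 1.5-fold range for 35 (5198 of all 12285 genes). Nuf2 was the exception to the first. The counts of 6 and 1 depended on the fit. They were 10 and 1 without day 4 replicate 1, against a background that also went up, to 28.7% of all genes (14.2% higher, 14.5% lower). They were 2 and 0 without day 3 replicate 2 or without day 3 replicate 3, when 1808 and 1582 of all genes were called.

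**Figure D1:**
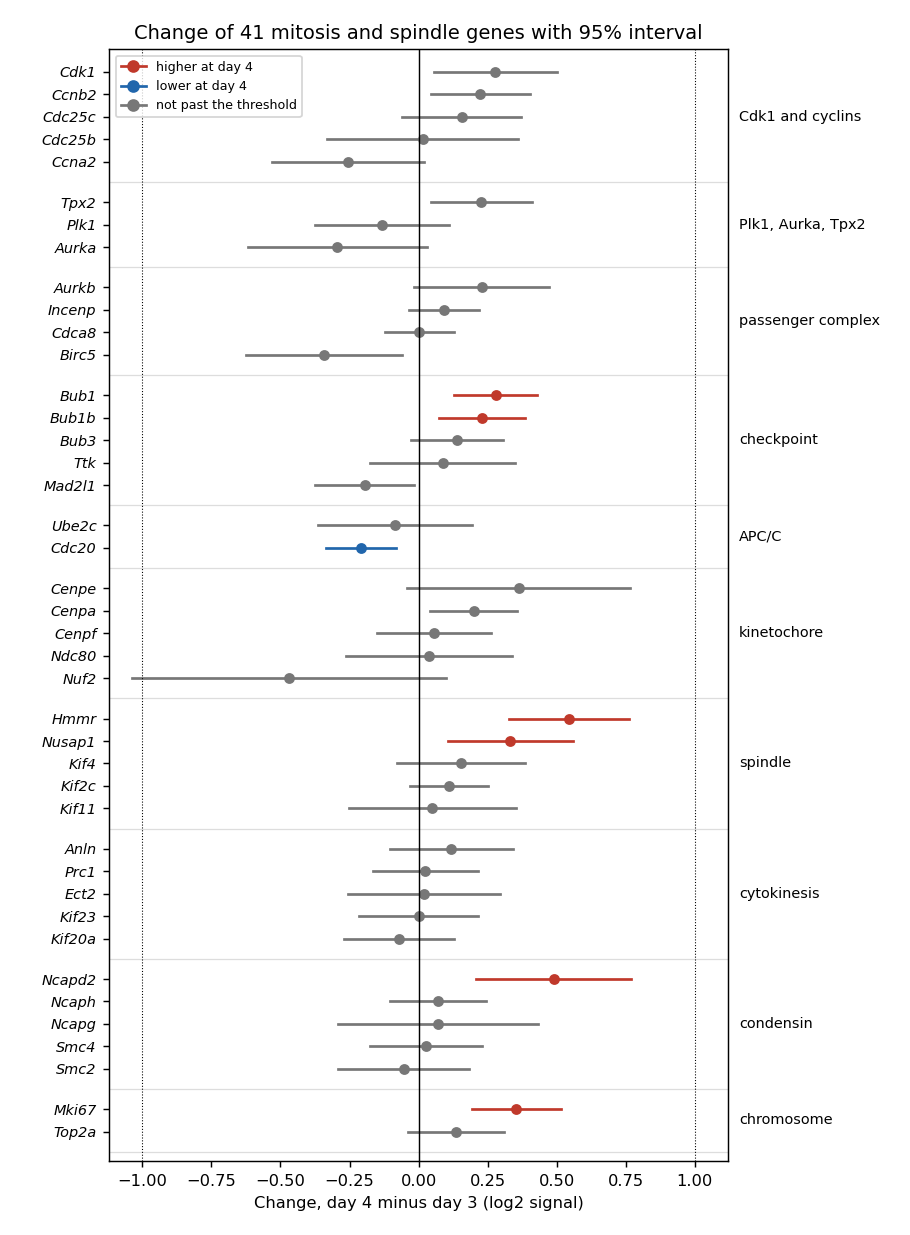
Change of each gene between the days, as day 4 minus day 3 in log2 signal (horizontal axis), with its 95% interval (line), grouped by role; dotted lines mark a 2-fold change. The 6 genes that rose and the 1 that fell are coloured, and only the interval of Nuf2 passes a dotted line.

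**Figure D2:**
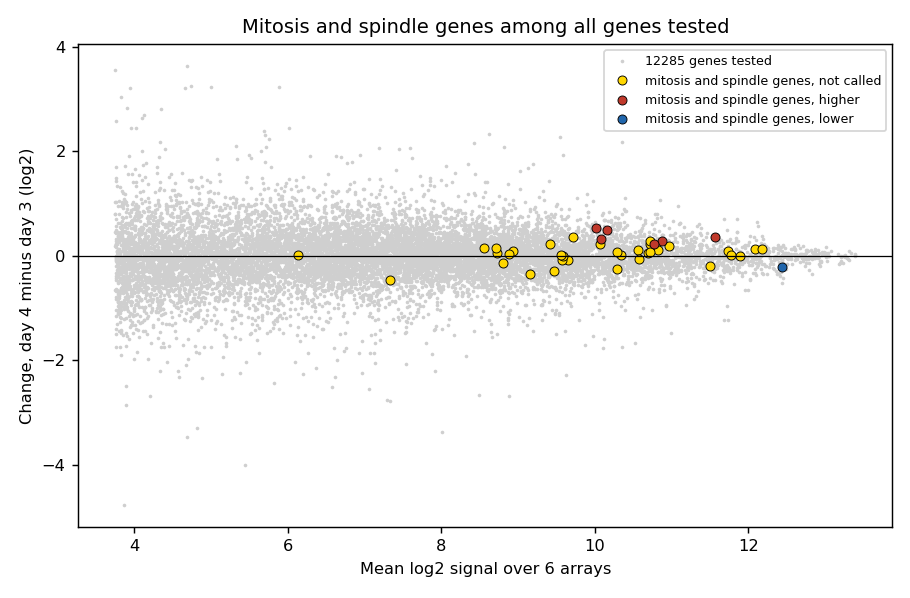
Change between the days (log2, vertical axis) against mean log2 signal over the 6 arrays (horizontal axis) for all 12285 genes tested (grey) and the mitosis and spindle genes (large points). All 41 genes lie between -0.47 and 0.54, while the other genes reach beyond 3 in both directions.

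Day 4 replicate 1 stood apart among the arrays. Control probe sets for Gapdh gave 14.0 times as much signal at the 3′ end as at the 5′ end, where the other 5 arrays gave 2.43 to 3.19, and those for Actb 6.71 (elsewhere 2.77 to 3.84). It was the highest or the lowest array of its day for 39 of the 41 mitotic genes (18 highest, 21 lowest), or 95.1%, against 81.3% of all genes. Without it, the fitted change of Ndc80, Kif11, Kif23 and Smc2, none of them called, changed sign. Values without it are given for the called genes and for those it moved most. The median SD between replicates of the mitotic genes on log2 signals was 0.09 (day 3) and 0.12 (day 4), below the 0.14 and 0.18 of all genes. The 2 sets were not matched for brightness, here or in the comparisons of changes and intervals above. The dimmest member, Cdc25b, averaged 69.9 at day 3, while the filter let in genes down to a signal of 13.5.

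The promoters of these genes are where the shared timing is set. The sequences of the 4 genes that rose with the smallest p are therefore shown, together with that of Cdc20. Cdc20 was chosen after its values were seen, as the only gene whose brightest probe set fell. Each sequence runs from 250 bases before the RefSeq start of the gene to 50 bases after it. It is given 5′ to 3′ on the strand of the gene, in build GRCm38.p6. Capitals mark matches to the CHR element (TTTGAA or TTCGAA) and the CCAAT box (CCAAT), on either strand, where matches may overlap each other. The positions are chr11:40733388-40733687 for Hmmr, chr7:135716330-135716629 for Mki67, chr2:127831810-127832109 for Bub1, chr6:125191537-125191836 for Ncapd2 and chr4:118437294-118437593 for Cdc20. All 5 lie on the minus strand.
Hmmr: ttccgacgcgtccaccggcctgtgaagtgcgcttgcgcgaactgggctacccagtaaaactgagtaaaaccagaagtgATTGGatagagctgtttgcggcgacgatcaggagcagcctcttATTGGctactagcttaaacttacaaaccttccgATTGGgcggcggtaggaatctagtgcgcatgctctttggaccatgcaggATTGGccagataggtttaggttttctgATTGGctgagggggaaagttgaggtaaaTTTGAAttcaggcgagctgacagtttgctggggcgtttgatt
Mki67: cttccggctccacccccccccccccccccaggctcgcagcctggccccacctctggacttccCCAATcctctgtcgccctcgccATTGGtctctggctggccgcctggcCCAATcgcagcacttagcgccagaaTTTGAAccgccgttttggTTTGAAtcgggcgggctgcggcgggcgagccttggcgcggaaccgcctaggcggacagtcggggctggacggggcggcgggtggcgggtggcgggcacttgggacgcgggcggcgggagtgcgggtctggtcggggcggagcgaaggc
Bub1: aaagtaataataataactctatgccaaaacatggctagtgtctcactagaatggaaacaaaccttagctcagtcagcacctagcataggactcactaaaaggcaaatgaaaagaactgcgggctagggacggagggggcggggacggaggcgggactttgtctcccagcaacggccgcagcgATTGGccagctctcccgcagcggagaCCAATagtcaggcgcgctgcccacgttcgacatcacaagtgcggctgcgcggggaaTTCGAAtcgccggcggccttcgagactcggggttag
Ncapd2: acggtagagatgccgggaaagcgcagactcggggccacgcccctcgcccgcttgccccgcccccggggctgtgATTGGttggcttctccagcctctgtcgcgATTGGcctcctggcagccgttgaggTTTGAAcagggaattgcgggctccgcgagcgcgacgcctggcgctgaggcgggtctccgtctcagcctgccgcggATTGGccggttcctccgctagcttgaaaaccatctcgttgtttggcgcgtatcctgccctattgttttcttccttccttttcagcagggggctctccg
Cdc20: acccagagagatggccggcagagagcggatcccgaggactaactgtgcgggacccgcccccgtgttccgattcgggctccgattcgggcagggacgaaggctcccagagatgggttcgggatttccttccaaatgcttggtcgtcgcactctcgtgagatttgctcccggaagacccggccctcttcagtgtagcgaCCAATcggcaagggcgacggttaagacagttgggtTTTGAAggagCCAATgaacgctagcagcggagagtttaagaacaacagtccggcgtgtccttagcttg

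Hmmr held 5 CCAAT boxes and 1 CHR, Mki67 3 and 2, Bub1 2 and 1, Ncapd2 3 and 1, and Cdc20 2 and 1. In Cdc20 the CHR began 18 bases before the start and the CCAAT boxes 53 and 8 bases before it. In Bub1 the CHR began at base 15 after the start, and in Hmmr at base 9. The promoters shown were chosen among those that held a match. RefSeq promoters were matched for 35 of the 42 genes, 38 windows in all. A CHR match was present in 31 of the 38 (81.6%), a CCAAT match in 30 (78.9%) and both in 28 (73.7%). Over all 32851 promoter windows of the same length, 19.2% held a CHR match, 37.4% a CCAAT match and 7.52% both. Among the 34 genes with both a probe set and a promoter, a CHR match was found in 6 of the 7 that changed and in 22 of the 27 that did not pass. Nusap1, which rose, held neither, like Birc5, Mad2l1, Ncaph and Nuf2. A match describes these letters and was not tested as a site.

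Cdk1 is the kinase that drives cells into mitosis when bound to a cyclin, and Cdc25b and Cdc25c are phosphatases that activate it. None of the 5 genes of this group passed the test. Cdk1 read 1698, 1447 and 1476 on the day 3 arrays and 2115, 1724 and 1773 on the day 4 arrays. Every day 4 array was above every day 3 array, but the gap between 1698 and 1724 was smaller than the spread within either day, and the change of 0.28 ± 0.10 (SE, given with every change) had an adjusted p of 0.0741. Ccnb2, which encodes cyclin B2, showed the same order. It went from 1684, 1534 and 1468 to 1938, 1796 and 1736, a change of 0.22 ± 0.08 (adjusted p = 0.0742). Cyclin A2, encoded by Ccna2, acts earlier, in S phase and G2. Ccna2 read 1398, 1313 and 1396 at day 3 and 931, 1328 and 1219 at day 4. The low value was that of day 4 replicate 1, and the days overlapped. The change was -0.26 ± 0.12 (adjusted p = 0.167), and -0.10 without that array. A second Ccna2 probe set gave a fall of 0.42 ± 0.09 when every probe set was tested on its own (adjusted p = 0.0132). Day 3 arrays read 1424, 1175 and 1297 and day 4 arrays 936, 1005 and 962, with no overlap. The Cdc25c change was 0.16 ± 0.10 and that of Cdc25b, at a signal of 69.9 ± 6.45 (mean ± SD, n = 3 arrays) at day 3 and 70.6 ± 5.94 at day 4, was 0.01 ± 0.15.

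Plk1 and Aurka encode kinases of the centrosome and spindle pole, and Tpx2 brings Aurka to the spindle and activates it. None passed. Tpx2 read 1056, 991 and 936 at day 3 and 1104, 1209.9 and 1175 at day 4, all above day 3, and its change of 0.23 ± 0.08 (adjusted p = 0.0757) passed without day 4 replicate 1 (0.26, adjusted p = 0.0215). Aurka ran the other way in its brightest probe set. It read 866, 724 and 762 at day 3 and 502, 722 and 715 at day 4, a change of -0.29 ± 0.14 (adjusted p = 0.176) that was -0.12 without day 4 replicate 1. The dim second Aurka probe set was at 21.4, 31.2 and 30.6 at day 3 and at 53.6, 86.3 and 71.5 at day 4. It rose by 1.34 ± 0.25 when tested on its own (adjusted p = 0.00662), while the brightest did not pass and had the opposite sign. Plk1 read between 408 and 512 at day 3 and between 421 and 435 at day 4 (change -0.13 ± 0.11, adjusted p = 0.411).

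The chromosomal passenger complex joins the kinase Aurkb to Incenp, Birc5 (survivin) and Cdca8 (borealin) and corrects faulty attachments at centromeres. None of its 4 genes passed, and their changes did not share a direction. Aurkb was at 0.23 ± 0.11 and Incenp at 0.09 ± 0.06 (adjusted p = 0.163 and 0.282). Cdca8 was level, with 3813, 3821 and 3801 at day 3 and 3717, 3782 and 3963 at day 4. Its change was 0.00 ± 0.06, with a 95% interval from -0.12 to 0.13. Birc5 read 772, 629 and 552 at day 3 and 489, 497 and 540.0 at day 4, each day 4 value below each day 3 value. Its change was -0.34 ± 0.13 (adjusted p = 0.0793).

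The spindle assembly checkpoint delays anaphase until all chromosomes are attached, and 2 of its 5 genes rose. Bub1 encodes a kinase of this checkpoint that sits at kinetochores. It read 1761, 1624 and 1724 at day 3 and 2059, 2117 and 2022 at day 4, without overlap. The rise was 0.28 ± 0.07 (adjusted p = 0.0157), and it was as large without day 4 replicate 1 (0.28, adjusted p = 0.00722). Bub1b encodes BubR1, a part of the complex that inhibits the APC/C. Its brightest probe set read 1559, 1689 and 1623 at day 3 and 1974, 1852 and 1883 at day 4, a rise of 0.23 ± 0.07 (adjusted p = 0.0398). Leaving out an array ended this call in 5 of 6 cases, day 4 replicate 1 being the exception (adjusted p up to 0.128). The other Bub1b probe set used when shared suffixes were left out gave 0.08 (adjusted p = 0.485), and its days overlapped. The call of Bub1 ended when replicate 2 of either day, or replicate 3 of day 3, was omitted (adjusted p up to 0.074), and with its probe sets averaged (0.19, adjusted p = 0.174). Bub3, the partner of both, was at 0.14 ± 0.07, and the kinase Ttk at 0.09 ± 0.12 (adjusted p = 0.214 and 0.633). Without day 4 replicate 1 they were at 0.09 and 0.01. Mad2l1 encodes Mad2, another part of the inhibitory complex. It read 3445, 3034 and 2870.2 at day 3 and 2571, 2794 and 2784 at day 4. All day 4 values were the lower, with a change of -0.20 ± 0.08 (adjusted p = 0.109).

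Cdc20 is the activator of the APC/C that this checkpoint restrains. It was the only gene of the list whose brightest probe set fell. A dimmer Ccna2 probe set also fell when tested on its own, as given above. For Cdc20, the values that follow are of its brightest probe set unless another is named. Day 3 arrays read 6051, 5966 and 5987 and day 4 arrays 5519.8, 5112 and 4952, with no overlap. The fall was 0.21 ± 0.06 (change -0.21, adjusted p = 0.0255), and the change was -0.25 without day 4 replicate 1 (adjusted p = 0.00223). The call was lost when any one of the other 5 arrays was left out (adjusted p up to 0.0929). It was also lost with probe sets of shared suffixes left out (-0.24, adjusted p = 0.231). The probe set used there read 1924 on day 4 replicate 1 and 1316 and 1372 on the other day 4 arrays. Tested on its own without day 4 replicate 1, its change was -0.41 (adjusted p = 0.00222). A dimmer Cdc20 probe set fell by 0.49 ± 0.15 when tested on its own (adjusted p = 0.0472), from signals of 464, 517 and 547 to 453, 317 and 332. Ube2c, the ubiquitin-conjugating enzyme that works with the APC/C, read 973, 757 and 769 at day 3 and 892, 739 and 721 at day 4 (change -0.08 ± 0.12, adjusted p = 0.666; -0.18 without day 4 replicate 1).

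**Figure D3:**
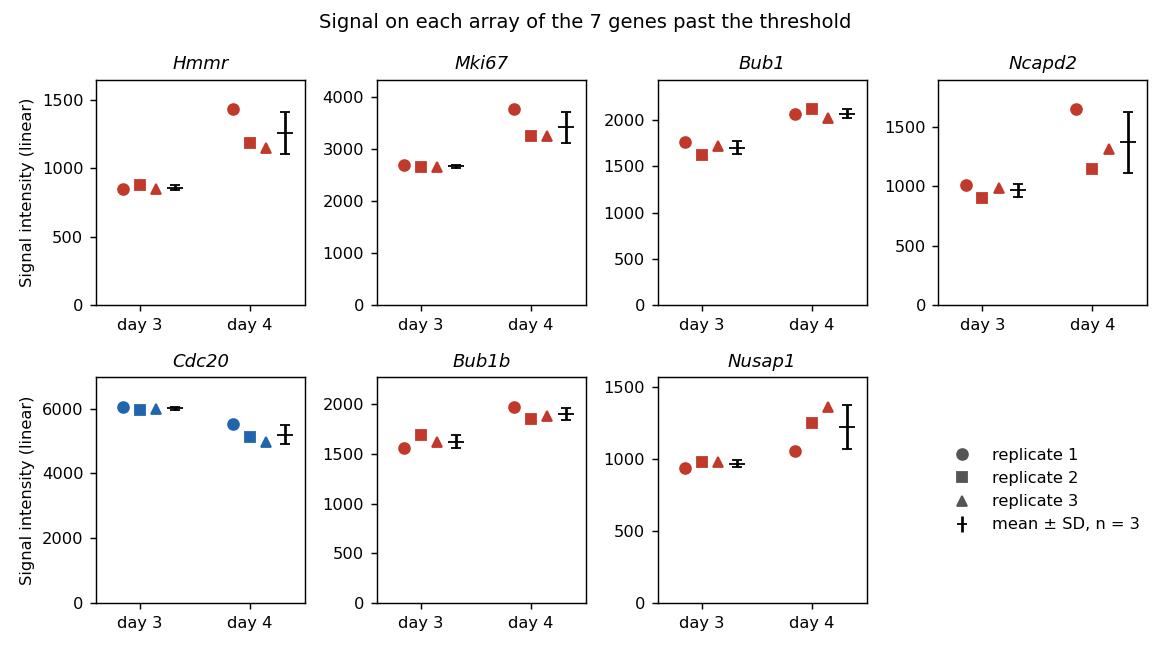
Linear signal intensity (vertical axis, from 0) on each of the 3 day 3 and 3 day 4 arrays for the 7 genes past the threshold, with mean ± SD of each day. In all 7 panels the days do not overlap; day 4 replicate 1 is the highest array for Hmmr, Mki67, Ncapd2 and Bub1b and the lowest day 4 array for Nusap1.

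Centromere and kinetochore genes did not pass in any of 5 cases. Cenpa encodes the histone H3 variant that marks centromeres. It read 1969, 1846 and 1817 at day 3 and 2044, 2217 and 2202 at day 4, above day 3 on all arrays. Its change of 0.20 ± 0.07 (adjusted p = 0.0688) passed without day 4 replicate 1 (0.24, adjusted p = 0.0146). Cenpe, a kinetochore motor, was at 691, 839 and 703 at day 3 and 1319.5, 783 and 838 at day 4. The high value was that of day 4 replicate 1. The change of 0.36 ± 0.18 (adjusted p = 0.181) was 0.13 without it. A second Cenpe probe set did not depend on that array. It read 595, 602 and 553 at day 3 and 722, 664 and 778 at day 4, with a change of 0.31 ± 0.09 on its own (adjusted p = 0.0531), and 0.30 without day 4 replicate 1 (adjusted p = 0.0359). Ndc80 and Nuf2 form the arm of the kinetochore that grips microtubules. Ndc80 was at 0.04 ± 0.13, and at -0.09 without day 4 replicate 1. Nuf2 had the widest interval of the list, from -1.04 to 0.10, with signals of 295, 137 and 166 at day 3 and 146, 151 and 114 at day 4. Its high value was that of day 3 replicate 1. The Cenpf change was 0.05 ± 0.09 (adjusted p = 0.714), and 0.15 without day 4 replicate 1.

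Among the 5 genes of spindle motors and microtubule binding, 2 rose. Hmmr encodes a spindle and hyaluronan-binding protein that helps to place the spindle, and its rise was the largest of the list. Signals of 846, 878 and 848 at day 3 stood against 1432, 1185 and 1150.3 at day 4, a rise of 0.54 ± 0.10 (adjusted p = 0.00389). Day 4 replicate 1 was the highest, and without it the rise was 0.45 (adjusted p = 0.000808). The call was kept in all 6 fits that left out an array (adjusted p up to 0.024). With the probe sets of each gene averaged, Hmmr was at 0.24 and not called (adjusted p = 0.247). The other 4 Hmmr probe sets were dimmer. One of them rose by 0.59 ± 0.15 on its own (adjusted p = 0.0291), from 76.3, 82.2 and 67.6 to 98.7, 115 and 126, and another was at -0.16 ± 0.15 (adjusted p = 0.49). Nusap1 bundles microtubules around chromosomes. It read 936, 979.6 and 976 at day 3 and 1053, 1248 and 1360.1 at day 4, a rise of 0.33 ± 0.10 (adjusted p = 0.041). Here day 4 replicate 1 was the lowest of its day, and without it the rise was 0.43 (adjusted p = 0.00117). Leaving out any one of the other 5 arrays lost the call (adjusted p up to 0.132), as did averaging its probe sets (0.18, adjusted p = 0.644). The other Nusap1 probe set in that average had signals of 4.51 to 17.3, was under the filter and was not tested on its own. The motors did not pass. Kif11, which pushes spindle poles apart, was at 0.05 ± 0.14, the chromosome motor Kif4 at 0.15 ± 0.10 and the microtubule depolymerase Kif2c at 0.11 ± 0.06. Without day 4 replicate 1, Kif11 was at -0.09 and Kif4 at 0.08.

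The genes of the central spindle and cytokinesis had changes from -0.07 to 0.12 in their brightest probe sets, and none passed. Kif23, a motor of the central spindle, read 828, 722 and 751 at day 3 and 810.0, 699 and 794 at day 4. Its mean signal was 767 on both days, and the 95% interval of its change ran from -0.21 to 0.21. A dim Kif23 probe set read 46.1, 44.7 and 43.8 at day 3 and 8.95, 26.5 and 35.8 at day 4, the lowest being day 4 replicate 1 (change -1.14 ± 0.46, adjusted p = 0.118, and -0.54 without that array). Prc1, which bundles the central spindle, was at 0.02 ± 0.08, Ect2 at 0.02 ± 0.12 (0.16 without day 4 replicate 1) and the motor Kif20a at -0.07 ± 0.09. Anln, which encodes the ring scaffold anillin, read 1524, 1419 and 1419.8 at day 3 and 1371, 1783 and 1603 at day 4. The change was 0.12 ± 0.10 (adjusted p = 0.432), and 0.22 without day 4 replicate 1 (adjusted p = 0.0405). The other Anln probe set was at 0.55 ± 0.22 (adjusted p = 0.122).

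Condensin I, which folds mitotic chromosomes, is made of the ATPases Smc2 and Smc4 and the subunits Ncapd2, Ncapg and Ncaph. Of these, 1 of 5 rose. Ncapd2 read 1011, 905 and 984 at day 3 and 1650.3, 1149 and 1313 at day 4, a rise of 0.49 ± 0.12 (adjusted p = 0.0206). The highest value was that of day 4 replicate 1, and without it the rise was 0.35 (adjusted p = 0.00947). The call was lost when any one of the day 3 arrays was left out (adjusted p up to 0.0836), and with its probe sets averaged (0.27, adjusted p = 0.16). The brightest probe sets of the 4 partners lay between -0.05 and 0.07, and between 0.07 and 0.13 without day 4 replicate 1. The difference between subunits was not tested. Smc4 read 3462, 3598 and 3373 at day 3 and 3052, 3758 and 3875 at day 4, with replicate 1 the lowest. A second Smc4 probe set rose by 0.23 ± 0.06 on its own (adjusted p = 0.0362). Another was at 0.49 ± 0.18 (adjusted p = 0.0999), and at 0.24 without day 4 replicate 1, with every day 4 value above every day 3 value. A dim Smc2 probe set was at 45.6, 60.5 and 50.1 at day 3 and 105, 105 and 109 at day 4. It rose by 1.04 ± 0.16 on its own (adjusted p = 0.00282), while the brightest Smc2 probe set was at -0.05 ± 0.11. Others were at -0.36 ± 0.21 and -0.08 ± 0.21 (adjusted p = 0.266 and 0.82). Another read 478, 632 and 565 at day 3 and 774, 424 and 376 at day 4 (change -0.16 ± 0.24, adjusted p = 0.699). Without day 4 replicate 1, that probe set fell (change -0.47, adjusted p = 0.0167) and the dim one rose by 1.05 (adjusted p = 0.00219).

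Mki67 encodes Ki-67, the coat protein of mitotic chromosomes used as a marker of dividing cells. It read 2709, 2662 and 2655 at day 3 and 3775, 3256 and 3251 at day 4. The day 3 values spanned a narrow range and all day 4 values lay well above it. The rise was 0.35 ± 0.07 (adjusted p = 0.00772), and 0.28 without day 4 replicate 1 (adjusted p = 0.00245). It was kept in all 6 fits that left out an array (adjusted p up to 0.0408). Top2a, the topoisomerase that untangles sister chromosomes, was at 4510.2, 4091 and 4698 at day 3 and 4439, 5209 and 4975 at day 4. Its change of 0.14 ± 0.08 (adjusted p = 0.237) was 0.20 without day 4 replicate 1 (adjusted p = 0.0351). A dimmer Top2a probe set rose by 0.69 ± 0.10 on its own (adjusted p = 0.00245), from 251, 247 and 246 to 435, 397 and 375.

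**Figure D4:**
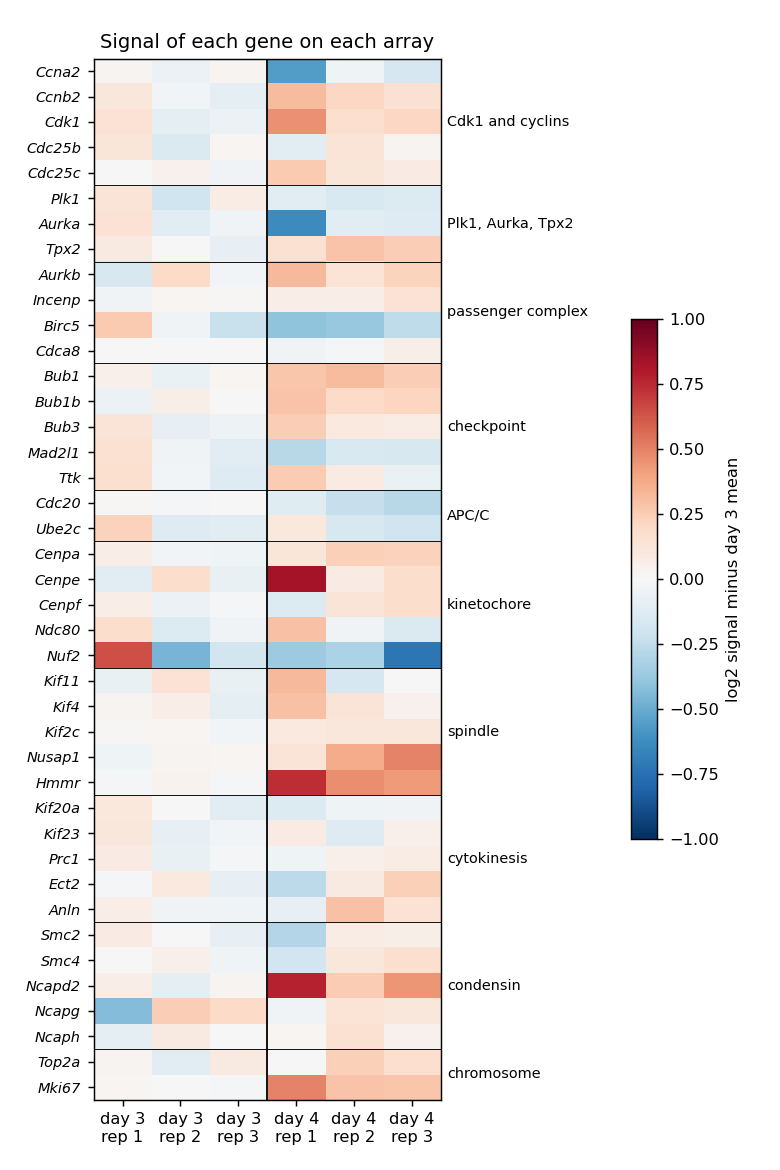
Log2 signal of each of the 41 genes (rows, grouped by role) on each array (columns), minus the mean of its day 3 arrays; red is above and blue below. Day 4 replicate 1 departs from the other day 4 arrays in Cenpe, Ncapd2 and Hmmr (redder) and in Aurka and Ccna2 (bluer), and the 3 day 4 arrays share their sign in the genes that passed.

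Read over all probe sets, the picture was similar in counts and less so for single genes. Of the 94 probe sets of the list, 88 were above the filter, and 10 of these were higher and 3 lower at day 4 (14.8%, against 18.2% of all probe sets, 9.67% higher and 8.53% lower). Of the 47 tested probe sets that were not the brightest of their gene, 35 had the sign of the brightest and 12 the opposite sign. No gene had probe sets called in both directions. The calls of Bub1b and Nusap1 were lost in this wider test, and those of Aurka, Ccna2, Smc2, Smc4, Top2a and Ttk came from a probe set other than the brightest. For Ttk that probe set rose by 0.61 ± 0.13 (adjusted p = 0.013), from 110, 119 and 115 to 193, 176 and 155. Which transcript part each probe set reads is not given in the sources used here.

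**Figure D5:**
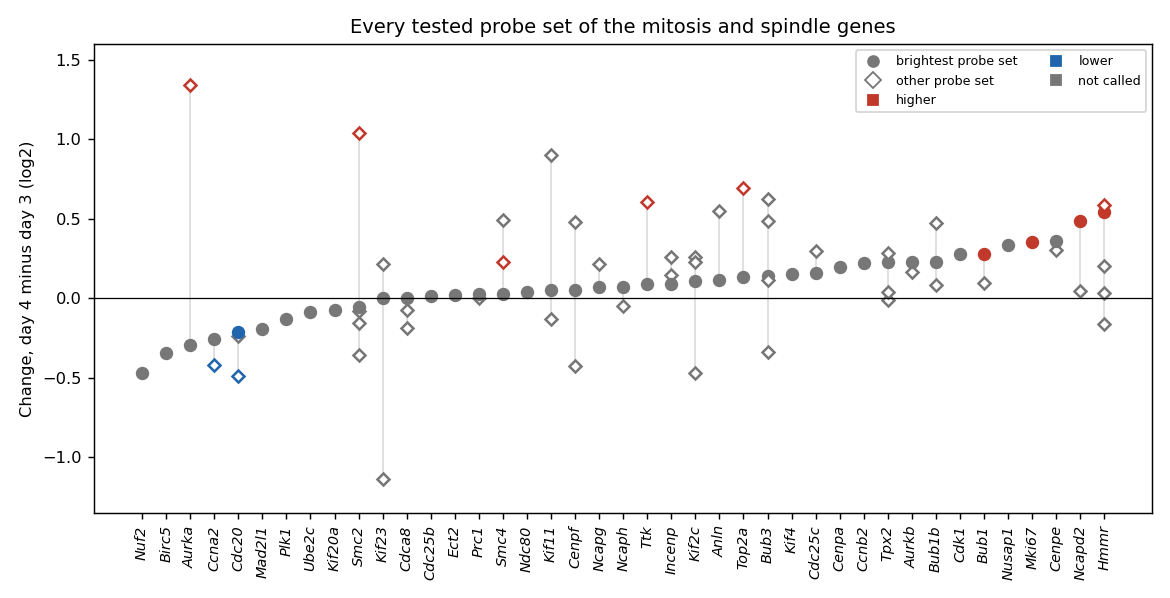
Change between the days (log2, vertical axis) of every tested probe set of each gene, ordered by the change of the brightest (filled circles); open diamonds are the other probe sets, and colour marks those called when each probe set was tested on its own. The red diamonds of Aurka and Smc2 lie above 1 while the brightest probe sets of both genes lie below 0.

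Other genes of cell division were set out in 9 lists that leave out the members above. The share of all genes called was 22.2%, and 28.7% without day 4 replicate 1, and the lists fell on both sides of it. Of 35 further kinetochore and checkpoint genes tested, 4 were higher and 4 lower at day 4 (22.9%), with a median change of -0.00. Zw10, which recruits dynein to kinetochores, fell by 0.61 ± 0.09, and Zwilch, of the same complex, rose by 0.51 ± 0.09 (adjusted p = 0.00199 and 0.00443). Trip13, which takes apart the checkpoint complex, fell by 0.31 ± 0.06 (adjusted p = 0.00408). Of 17 APC/C genes, 3 were higher and 2 lower (29.4%), among them Anapc1 (0.37 ± 0.08) and Anapc16 (-0.46 ± 0.09). Of 15 cohesin genes, 4 were higher and 0 lower (26.7%), or 9 and 1 without day 4 replicate 1. Stag2 and Rad21, both subunits of cohesin, rose by 0.46 ± 0.07 and 0.54 ± 0.11 (adjusted p = 0.00244 and 0.00853). None of 3 condensin II genes passed. Of 39 other spindle and centrosome genes, 4 were higher and 1 lower (12.8%), and of 11 other cytokinesis genes, 2 and 1 (27.3%). Cep55, which recruits the abscission machinery, rose by 0.92 ± 0.11 from 286 ± 36.6 to 538 ± 14.9 (adjusted p = 0.00059). Of 27 genes that control mitotic entry and exit, 1 was higher and 2 lower (11.1%), and Nfyc, a subunit of NF-Y, fell by 0.50 ± 0.08 (adjusted p = 0.00179). Of 46 DNA replication genes, 6 were higher and 1 lower (15.2%), or 7 and 7 without day 4 replicate 1. The G1 list had the largest share called, 38.1%, with 1 of 21 tested genes higher and 7 lower and a median change of -0.32. Cdkn1c, Cdk6 and Ccne2 fell by 0.89 ± 0.10, 0.62 ± 0.09 and 0.84 ± 0.14.

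Markers of cell types differed between the days in their summed signals, in the same samples. Their counts of calls stand beside 11.5% higher and 10.7% lower over all genes. Summed signals of 8 pluripotent cell markers ran from 10004 to 10274 at day 3 and from 7098 to 7318 at day 4, with 5 of 8 tested lower and 0 higher. Those of 6 endoderm markers went from 631 to 669 down to 397 to 426 (3 of 6 lower, 0 higher), and those of 7 cardiac and lateral plate markers from 219 to 262 up to 417 to 477 (3 of 7 higher, 0 lower). The 8 presomitic mesoderm markers, of the cell type that the reporter marks, summed to 3031 to 3233 and 4877 to 5117 (2 of 8 higher, 1 lower). The 7 neural markers summed to 96.7 to 104 at day 3 and 50.8 to 58.9 at day 4 (0 of 2 tested called), and Sox1 and Neurog2 were under the filter level on every array. The 8 endothelium and blood markers ran from 614 to 632 and from 643 to 908, with Hba-x and Pecam1 under the filter level throughout (1 of 5 tested higher, 1 lower). Their part in the mitotic changes was not tested.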

How the data were processed

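Gene expression was measured on 6 Affymetrix arrays, 3 per day, from total RNA amplified before labelling. Per the submitters' processing notes, MAS5 made the deposited linear signal intensities. The sources used here give neither its version nor its scaling target. The trimmed mean signal was 160.4 to 162.1 per array, so no further scaling was done. The number of arrays limits the precision.

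Symbols came from the platform's annotation (34945 with 1 symbol, 932 with several, left unnamed, and 9211 not listed). One probe set stood for each gene, that of the highest mean on the log2 scale. Testing kept genes over a signal of 13.5, which is the 40th percentile over the array. Log2 signal was modelled on day alone in R 4.3.3 with limma 3.58.1 (lmFit, eBayes with trend), 2-sided, with Benjamini-Hochberg adjustment over 12285 genes at 0.05. Changes are day 4 minus day 3, SE is the moderated SE, and intervals are 95% and unadjusted. The model was tested on simulated arrays.

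The members and gene lists were chosen with earlier results of these data known. All members were named. Of each related list, up to 4 genes with the smallest adjusted p past the threshold could be named. Printed promoters, from RefSeq, were those of the 4 called members with the smallest p whose promoter held a match, none on chromosome 18. Alternatives were an offset of 4.14 before log2, other normalizations, filters, probe set choices, variance models and thresholds, a replicate block, and leaving out each array. Counts per related list and probe sets without day 4 replicate 1 were added after the data were seen.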

Additional observations from a re-analysis of the deposited data

How the results depend on the processing

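Over all alternatives, 622 changes of single members kept their direction and side of the threshold, 43 lost a call, 22 gained one and 41 changed sign. Only the 7 called members could lose a call, so most of the 622 were genes that stayed uncalled. Of 18 alternatives, the call was kept in 17 for Hmmr and for Mki67, and in 13 for Bub1 and for Ncapd2. It was kept in 9 for Cdc20, 8 for Nusap1 and 6 for Bub1b. The members called higher numbered 2 with probe sets of a gene averaged (Mki67 and Smc4; the 1 lower was then Ccna2 at -0.34, adjusted p = 0.0427, in place of Cdc20, adjusted p = 0.0762), 1 with eBayes without trend (Hmmr), 12 with array quality weights and 10 at an adjusted p under 0.10, and 2 to 10 over the fits that left out an array. Those called lower were 0 without a filter, without probe sets of shared suffixes (_x_at, _s_at, _a_at) and with eBayes without trend, 2 at an adjusted p under 0.10, and 0 to 1 with an array left out. Over all genes the calls were 1796 with the mean over probe sets and 4312 with array weights. They were 4055 of 22276 when every probe set was tested on its own, and 1582 to 3530 with an array left out. As shares, 2.44% of members and 16.8% of all genes were called without trend, and 29.3% and 30.8% at an adjusted p under 0.10. These shares were 7.32% and 16.1% with the mean over probe sets, and 31.7% and 35.1% with array weights. Without a filter they were 9.76% and 13.2%, and without shared suffixes 19.4% and 21.2%. In the related lists, 25 of 214 genes tested were higher and 18 lower, beside 11.5% higher and 10.7% lower over all genes. The higher count was 14 with the mean over probe sets, 13 without trend, 46 with array weights and 12 to 35 with an array left out. The lower count was 36 with array weights, 12 to 30 with an array left out, and 27 at an adjusted p under 0.10. Over all genes, 12.9% to 28.7% were called with an array left out, and the shares for the other settings stand above. The cause of these differences was not tested.

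The sign changes were all of genes not called. Quantile normalization gave -0.048 for Cdc25b. Centring each array on its median gave -0.018 for Cdc25b, -0.030 for Cdca8, -0.032 for Kif23, -0.0077 for Prc1, -0.011 for Ect2 and -0.0056 for Smc4. The mean over probe sets gave 0.52 for Aurka, -0.12 for Incenp, -0.087 for Cdca8, -0.31 for Kif23 and 0.077 for Smc2. Without the shared suffixes Cdca8 was at -0.19, Bub3 at -0.34, Kif11 at -0.13, Kif2c at -0.47 and Ncaph at -0.049. Array weights gave -0.0096 for Ndc80, -0.086 for Kif11, -0.035 for Kif23 and 0.065 for Smc2. With 1 array left out, the changes spanned -0.057 to 0.080 for Cdc25b, -0.024 to 0.022 for Cdca8, -0.18 to 0.032 for Ube2c, -0.0046 to 0.15 for Cenpf, -0.091 to 0.13 for Ndc80, -0.085 to 0.16 for Kif11, -0.043 to 0.066 for Kif23, -0.012 to 0.066 for Prc1, -0.086 to 0.16 for Ect2, -0.12 to 0.065 for Smc2, -0.038 to 0.13 for Smc4 and -0.15 to 0.19 for Ncapg.

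The labels do not say whether same-numbered samples of the 2 days were paired. Deviations of same-numbered arrays correlated at 0.07, 0.01 and -0.00, and those of differently numbered arrays at -0.07 to 0.07. These values cannot show whether samples shared a culture. With a replicate block, 7 members were higher and 1 lower (19.5%, against 23.5% of all genes). Bub1b was then lost while Ccnb2 and Cdk1 passed.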
